A study of Homo sapiens with 6 samples.

Results

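The genes described here are 10 antioxidant genes, most of them known targets of the transcription factor NRF2, in human dermal fibroblasts with reduced expression of the zinc-finger gene ZNF469. They are the superoxide dismutase genes SOD1, SOD2 and SOD3, the glutathione synthesis genes GCLC and GCLM, the thioredoxin system genes TXNRD1 and SRXN1, the detoxification genes NQO1 and HMOX1, and NFE2L2, which encodes NRF2 itself. They were chosen by symbol, each symbol matched 1 row of the deposited table of 21151 genes, and all 10 were among the 16353 genes with enough counts to be tested. RNA was sequenced from the CCD-1064Sk line, a fibroblast line from skin, grown in serum-containing medium. The control group (shControl, genotype given as WT) carried a control short-hairpin RNA, and the knockdown group (shZNF469) carried short-hairpin RNA against ZNF469, so that both groups held a hairpin. There were 3 libraries in each group, which the labels describe as technical replicates. The p-values therefore measure the spread between these libraries only. How many different hairpins there were, or whether cells came from 1 clone, is not stated in the labels or processing notes used here.

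Cells meet reactive oxygen with several layers of enzymes. Superoxide dismutases turn superoxide into hydrogen peroxide, and peroxide is then removed by enzymes that draw on glutathione or thioredoxin. NRF2 is held at a low level by KEAP1, which marks it for degradation. When oxidants or electrophiles modify KEAP1, NRF2 accumulates, pairs with small MAF proteins and binds the antioxidant response element in front of genes such as NQO1, GCLM, TXNRD1, SRXN1 and HMOX1. The control of NRF2 by KEAP1 acts on the protein, so the NFE2L2 transcript is not a measure of NRF2 activity. SOD2 is also known as a target of NF-kB and inflammatory cytokines, and HMOX1 as a gene repressed by BACH1.

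Total counts ran from 35417366 to 48298264 per library. ZNF469 itself had 41.98 ± 3.70 CPM (counts per 1e+06 of library total, with TMM scaling between libraries) under shControl and 19.39 ± 1.77 under shZNF469 (SD, n = 3), or 46.2% of the control mean. Each library of a group differed from the others by more than sampling noise (chi-square of 8.71 to 36.6 per degree of freedom over genes). All 10 fibroblast markers were detected, at a summed level of 37100 to 37800 CPM under shControl and 28900 to 30700 CPM under shZNF469. Of the keratinocyte, melanocyte, endothelial and immune cell lists, 3 of 10, 2 of 7, 4 of 7 and 4 of 8 markers are listed. These are KRT10, EPCAM and DSP (keratinocyte), MITF and PMEL (melanocyte), VWF, TEK, CLDN5 and EMCN (endothelial), and CD14, CD68, CD79A and TYROBP (immune). Of them 2, 2, 1 and 1 had a mean of at least 1 CPM. Markers that are not listed include KRT5, KRT14, MLANA, TYR, PECAM1, CDH5, PTPRC and CD3E. The summed levels of these lists were 109 to 119, 62.7 to 63.9, 1.82 to 4.88 and 123 to 150 CPM under shControl, and 119 to 127, 77.8 to 87.2, 1.30 to 4.40 and 142 to 190 CPM under shZNF469. Genes of the mitochondrial genome held 3.73% to 4.06% of counts under shControl and 4.22% to 4.70% under shZNF469. The part of these differences in the results below was not tested. In GENCODE release 29, SOD1, SOD2, NFE2L2, GCLC, TXNRD1 and NQO1 each overlap at least 1 gene of the opposite strand. Reads of such genes cannot be told apart without a stated strand setting. SOD3, HMOX1, GCLM and SRXN1 overlap 0 such genes. TXNRD1 and SRXN1 each overlap a coding gene of their own strand. Libraries also differed in the balance of short and long transcripts. Among the 10% of genes with the shortest transcripts, 886 had a mean of at least 1 CPM. These short-transcript genes lay at a median of 0.143 (log2) above the group mean in shControl replicate 3. They lay 0.159 above it in shZNF469 replicate 3 and at -0.130 in shZNF469 replicate 2.

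SOD2, SOD3 and HMOX1 rose in the knockdown, while the core NRF2 targets of the glutathione and thioredoxin systems did not pass the test in either direction. Of the 10 genes, 3 were higher and 0 lower by edgeR's quasi-likelihood test at an adjusted p under 0.05. Among all genes tested, 9.9% passed in either direction (4.56% higher and 5.34% lower). At an unadjusted p under 0.05 there were 3 higher and 1 lower, where 24.5% of all genes tested passed in either direction. DESeq2 also gave 3 and 1, the lower gene being NQO1, where it called 22.5% of the genes it tested. The median log2 fold change (shZNF469 minus shControl) of the 10 was 0.07, against 0.00 for all genes tested. The libraries of the groups did not overlap for 5 of the 10, where this held for 31.4% of all genes tested. Of the 3 rises, that of SOD2 passed whichever library was left out. The calls of SOD3 and HMOX1 were lost without any 1 of 5 libraries (all but shZNF469 replicate 2), which left 1 member higher.

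**Figure D1:**
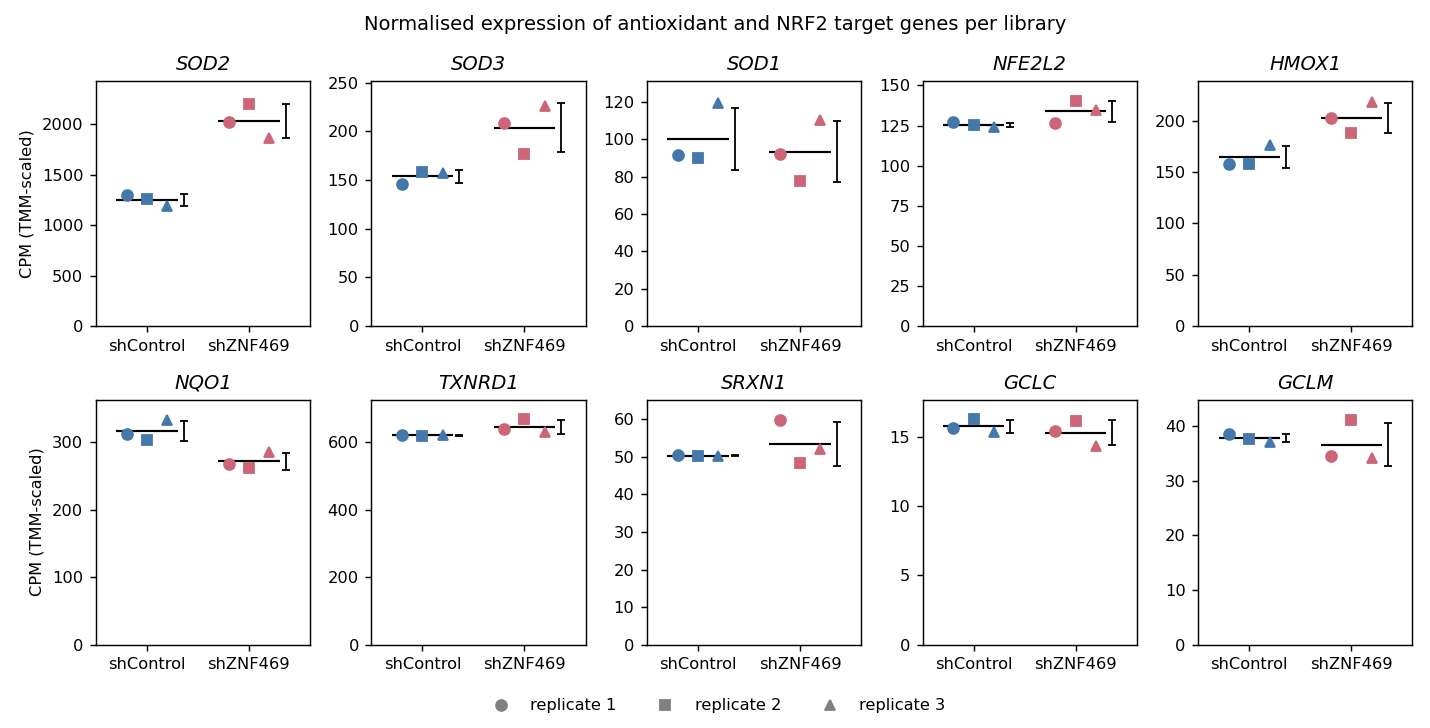
Normalised expression (TMM-scaled CPM, linear axis from 0) of the 10 genes in each library; the marker shape gives the replicate number, the horizontal line the group mean and the bar the SD (n = 3). SOD2, SOD3 and HMOX1 lie higher in all 3 shZNF469 libraries than in any control, NQO1 lies lower, and the controls of TXNRD1 and SRXN1 are almost level.

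The mitochondrial manganese enzyme SOD2 changed most. The gene (ENSG00000291237, protein coding, chromosome 6, 159669069 to 159762281 on GRCh38.p14) stood at 1296, 1259 and 1188 CPM in the control libraries and at 2023, 2195 and 1859 CPM in the shZNF469 libraries. The lowest knockdown library thus lay well above the highest control. The means were 1248 ± 55.2 and 2026 ± 168 CPM (SD, n = 3), a 1.62-fold rise (95% interval 1.46 to 1.81; log2 fold change 0.70, SE 0.07, edgeR adjusted p = 0.00134). In bulk RNA, more transcripts per cell and more cells that express a gene cannot be told apart. SOD2 shares part of its locus with WTAP, a gene of the opposite strand that encodes a subunit of the RNA methylation complex, and its reads could add to those of SOD2. WTAP was at 96.0 ± 2.74 CPM under shControl and 109 ± 4.99 CPM under shZNF469. The part of its reads in the SOD2 counts was not tested.

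The size of the SOD2 rise depended on the unit. The authors' TPM (an abundance scaled per transcript length and to a common total) was 525, 389 and 399 under shControl and 646, 669 and 575 under shZNF469, again without overlap. Their means, 438 ± 75.8 and 630 ± 49.2 TPM, differ 1.44-fold, and limma on log2(TPM + 1) gave a log2 fold change of 0.54 (adjusted p = 0.0323). The counts behind 1 unit of TPM, relative to the median gene of the library, were 1.88, 2.46 and 2.10 under shControl and 2.30, 2.56 and 2.23 under shZNF469. This quantity is constant where a gene's transcripts keep the same effective length. For SOD2 its highest value was 1.36 times its lowest, a spread reached by 7.08% of 12802 genes with over 50 counts in each library, whereas the spread was 1.01 times for SOD1 and SOD3.

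SOD3, the secreted enzyme that binds to matrix proteoglycans, rose less. The gene (ENSG00000109610, chromosome 4, 24795573 to 24800842) had 146, 158 and 157 CPM under shControl and 209, 177 and 226 CPM under shZNF469. All 3 knockdown libraries were higher, with replicate 2 nearest to the controls. SOD3 deviated from its group mean by -0.198 (log2) in shZNF469 replicate 2 and by 0.157 in shZNF469 replicate 3. The short-transcript genes lay at -0.130 and 0.159 there. The signs differed in shControl replicate 2 (0.044 against -0.055) and shZNF469 replicate 1 (0.041 against -0.023). The means were 154 ± 6.83 and 204 ± 25.1 CPM (1.33-fold, 95% interval 1.14 to 1.54, log2 fold change 0.41, SE 0.09, adjusted p = 0.0365). The adjusted p lay between 0.00814 and 0.134 with single libraries left out, and was 0.0565 with the replicate number as a block.

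SOD1, the abundant enzyme of the cytosol, did not pass. The gene (ENSG00000142168, chromosome 21, 31659693 to 31668931) had 91.6, 89.9 and 119 CPM under shControl and 91.8, 77.7 and 110 CPM under shZNF469. The groups overlapped, and replicate 3 was the highest library in both. The log2 fold change was -0.10 with a 95% interval of -0.46 to 0.26 (adjusted p = 0.756), the widest interval of the 10 genes, which spans folds from 0.725 to 1.19. SOD1 had the fewest counts per unit of TPM of the 10 genes (0.285 to 0.287 of the median gene), which marks a short transcript. Its libraries deviated from their group means in the same direction as the short-transcript genes, by 0.261 and 0.255 (log2) in the replicate 3 libraries and by -0.247 in shZNF469 replicate 2. CCS, which encodes the copper chaperone that loads SOD1, was at 17.97 ± 2.35 and 19.4 ± 0.249 CPM (adjusted p = 0.601).

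Per transcript length, the sum of the 3 dismutases was 1021, 898 and 942 TPM under shControl and 1224, 1192 and 1192 TPM under shZNF469. The groups did not overlap (954 ± 62.4 against 1202 ± 18.9 TPM, exact permutation p = 0.1, two-sided, the smallest that 3 against 3 allows). The share of SOD2 in that sum was 51.4%, 43.3% and 42.3% under shControl and 52.8%, 56.1% and 48.2% under shZNF469. These shares overlapped (45.7 ± 4.98% against 52.4 ± 3.97%, exact permutation p = 0.2). The share of SOD1 was 24.0%, 26.6% and 31.3% under shControl and 19.2%, 17.8% and 22.4% under shZNF469, without overlap (exact permutation p = 0.1). SOD3 held 27.0 ± 2.80% and 27.8 ± 1.68% (exact permutation p = 0.8).

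**Figure D2:**
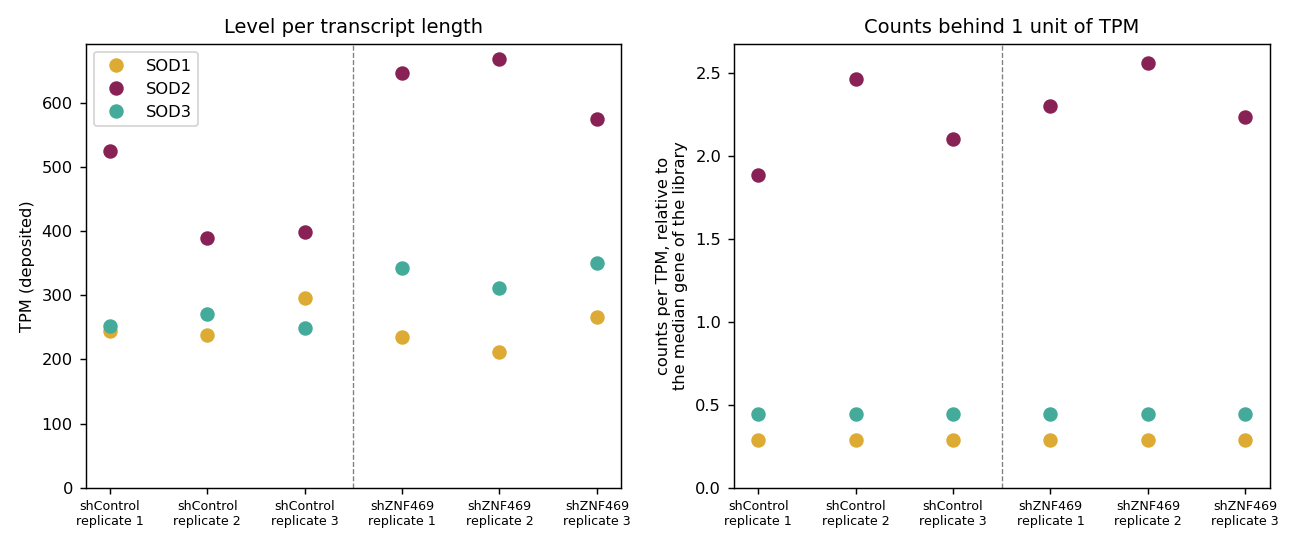
Deposited TPM of SOD1, SOD2 and SOD3 in each library (left) and the counts behind 1 unit of TPM relative to the median gene of the library (right, no unit); each point is 1 library and the dashed line separates the groups. SOD2 is the highest of the 3 in every library, and its counts per TPM range from 1.88 to 2.56 while those of SOD1 and SOD3 stay level.

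NFE2L2 (ENSG00000116044, chromosome 2, 177230303 to 177264727) had 127, 125 and 124 CPM under shControl and 127, 140 and 135 CPM under shZNF469. The controls were close together, and 1 knockdown library lay among them. The change was 1.07-fold with a 95% interval of 0.976 to 1.17 (adjusted p = 0.364). The genes that control NRF2 did not pass either. Of the 10 genes in the list of NRF2 and its regulators, 0 passed by edgeR and 0 had an unadjusted p under 0.05. DESeq2 and limma on log2 TPM also called 0. Over all genes edgeR called 9.9%, its unadjusted p 24.5% and DESeq2 22.5%. Limma called few of the 16353 genes, with 233 higher and 526 lower on log2(TPM + 1) and 191 and 462 on log2(TPM + 0.1). KEAP1, the repressor of NRF2, was at 55.6 ± 1.85 and 58.3 ± 7.16 CPM, BACH1, which competes at the same elements, at 76.1 ± 6.60 and 79.3 ± 5.91 CPM, and SQSTM1, an autophagy receptor that binds KEAP1, at 1123 ± 52.9 and 1192 ± 67.0 CPM. NFE2L1 and BTRC, named as the others with the lowest p in the list, had log2 fold changes of 0.06 each.

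HMOX1 encodes the inducible haem oxygenase, which splits haem into biliverdin, iron and carbon monoxide. The gene (ENSG00000100292, chromosome 22, 35381096 to 35394207) had 158, 158 and 177 CPM under shControl and 203, 189 and 218 CPM under shZNF469. All knockdown libraries were above all controls, with a gap between the nearest pair of about the size of the SDs. HMOX1 deviated from its group means in the same direction as the short-transcript genes. The deviations were 0.106 and 0.105 (log2) in the replicate 3 libraries and -0.104 in shZNF469 replicate 2. The means were 164 ± 10.7 and 203 ± 14.8 CPM (1.24-fold, 95% interval 1.10 to 1.39, log2 fold change 0.30, SE 0.07, adjusted p = 0.0437). On the authors' TPM scale the libraries were tighter, with 247 ± 4.89 under shControl and 304 ± 3.17 under shZNF469. With single libraries left out, the adjusted p lay between 0.0285 and 0.150. HMOX2, the constitutive haem oxygenase gene, was at 26.4 ± 0.695 against 21.6 ± 2.53 CPM, which did not pass (log2 fold change -0.29, adjusted p = 0.0921).

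NQO1, a quinone reductase gene often used as a readout of NRF2 activity, went the other way. The gene (ENSG00000181019, chromosome 16, 69709401 to 69726560) had 312, 303 and 332 CPM under shControl and 268, 261 and 285 CPM under shZNF469. Every knockdown library was below every control. The means were 316 ± 15.0 and 271 ± 12.2 CPM (log2 fold change -0.22, SE 0.06, 95% interval -0.35 to -0.09), and the adjusted p of 0.0551 missed the threshold. NQO1 did pass as lower with DESeq2 (adjusted p = 0.000711), with the replicate block (adjusted p = 0.0362) and in a fit, added after the data had been seen, that corrected each library for transcript length (adjusted p = 0.0283). Its adjusted p over all alternatives ran up to 0.171. HMOX1 and NQO1, both known NRF2 targets, had fold changes of opposite sign with 95% intervals that each left out 0. These single-gene intervals are not adjusted, and 24.5% of all genes tested had an unadjusted p under 0.05.

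The sequence that NRF2 binds could be looked up in front of 8 of the 10 genes, for which RefSeq promoter windows on GRCh38.p14 are at hand (250 bases before to 50 after each start, 13 windows, with no entry for SOD1 and HMOX1). The antioxidant response element was searched as TGACNNNGC on both strands. It was found in 3 of the 13 windows, of GCLM and of both TXNRD1 starts, and in 13.3% of all 35116 windows. None of these matches overlapped an AP-1 site (TGANTCA), which was found in 0 of the 13 windows and in 7.71% of all. Every match of the element in these windows is shown, and GCLM and TXNRD1 are 2 of the 7 members that did not pass the test. Each is written 5′ to 3′ in the sense of the gene, with the element in capitals (on the opposite strand where it reads GC first):
GCLM (chr1:93909446-93909474, minus strand): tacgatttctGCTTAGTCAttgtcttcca
TXNRD1, first start (chr12:104215670-104215698, plus strand): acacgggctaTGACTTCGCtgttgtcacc
TXNRD1, first start (chr12:104215761-104215789, plus strand): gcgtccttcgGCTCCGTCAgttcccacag
TXNRD1, second start (chr12:104286920-104286948, plus strand): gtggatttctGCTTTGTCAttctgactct
The GCLM match begins 34 bases before the start of the gene, and those of TXNRD1 begin 99 and 8 bases before its first start and 102 before its second. A match of these letters does not show that NRF2 was bound, and a window without a match does not show that a gene lacks the element. Bases farther from the start were not searched.

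GCLM and GCLC encode the modifier and catalytic subunits of glutamate-cysteine ligase, which makes the rate-limiting step of glutathione synthesis. GCLM (ENSG00000023909, chromosome 1, 93885199 to 93909430) had 38.5, 37.7 and 37.1 CPM under shControl and 34.6, 41.1 and 34.2 CPM under shZNF469. The controls lay inside the range of the knockdown libraries, which were more spread (adjusted p = 0.813, 95% interval of the fold change 0.851 to 1.11). GCLC (ENSG00000001084, chromosome 6, 53497341 to 53545101) had 15.7, 16.3 and 15.3 CPM under shControl and 15.4, 16.2 and 14.3 CPM under shZNF469, and its groups overlapped as well (adjusted p = 0.800, 95% interval 0.860 to 1.10). The ratio of GCLM to GCLC counts was 2.46, 2.31 and 2.42 under shControl and 2.25, 2.55 and 2.38 under shZNF469. The balance of the subunit transcripts thus did not differ beyond the spread of the libraries (2.40 ± 0.0753 against 2.39 ± 0.149, exact permutation p = 1.0). The smallest p that this test allows with 3 against 3 libraries is 0.1.

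TXNRD1 encodes the cytosolic thioredoxin reductase and SRXN1 the sulfiredoxin that repairs overoxidised peroxiredoxins. TXNRD1 (ENSG00000198431, chromosome 12, 104215779 to 104350307) had 621, 618 and 620 CPM under shControl and 637, 670 and 629 CPM under shZNF469. The knockdown libraries were all higher, by a few percent (1.04-fold, 95% interval 0.973 to 1.11, adjusted p = 0.472). SRXN1 (ENSG00000271303, chromosome 20, 646615 to 653200) had 50.6, 50.3 and 50.3 CPM under shControl and 59.9, 48.5 and 52.1 CPM under shZNF469. Its mean difference came from shZNF469 replicate 1, and the other two knockdown libraries lay on both sides of the controls (1.06-fold, 95% interval 0.933 to 1.21, adjusted p = 0.595). Without that library the log2 fold change was -0.01. For GCLM, GCLC, TXNRD1 and SRXN1 the highest upper bound of these single-gene intervals was 1.21-fold, that of SRXN1. It lies inside the interval of HMOX1 (1.10 to 1.39). The intervals cover the spread between these libraries only.

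**Figure D3:**
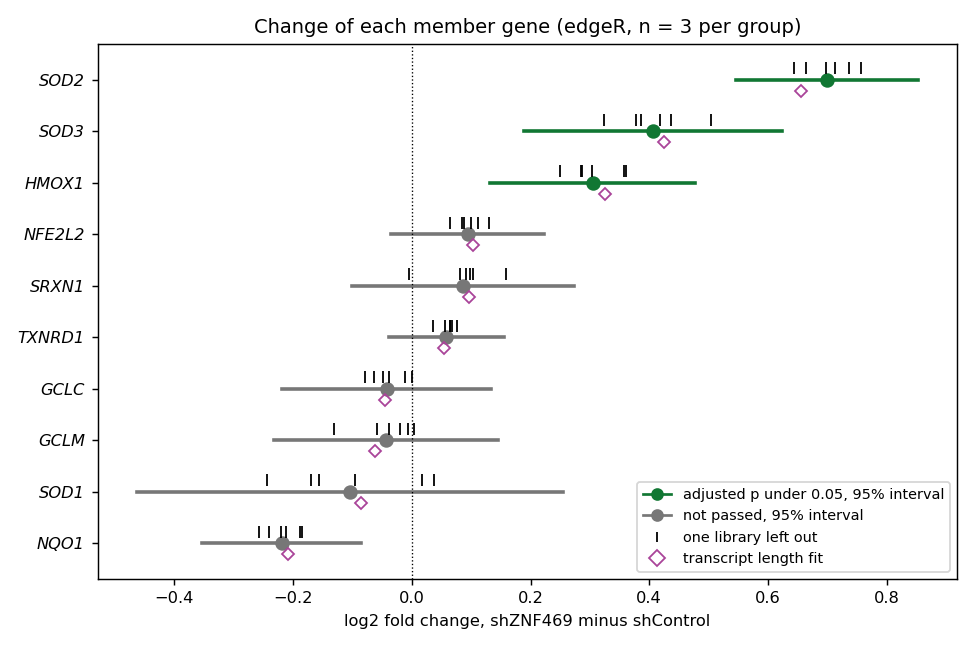
Log2 fold change of each of the 10 genes (circle) with its 95% interval (line), the 6 values with 1 library left out (ticks above) and the value of the transcript length fit (diamond below). Only SOD2, SOD3 and HMOX1 passed the test (green), and the intervals of NFE2L2, SRXN1, TXNRD1, GCLC, GCLM and SOD1 cross 0.

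By level per transcript length in the controls, SOD2 stood first (438 ± 75.8 TPM), followed by TXNRD1 (371 ± 18.4), NQO1 (300 ± 4.98), SOD1 (259 ± 30.9), SOD3 (257 ± 11.9), HMOX1 (247 ± 4.89), NFE2L2 (105 ± 7.71), SRXN1 (46.5 ± 2.24), GCLM (18.3 ± 0.856) and GCLC (9.72 ± 0.675). The libraries of SOD1, SOD3 and HMOX1 overlapped, so these neighbours could not be ordered, and the highest library of SOD1 (295.0 TPM) nearly reached the lowest of NQO1 (295.1 TPM). In the knockdown, SOD3 (335 ± 21.2 TPM) and HMOX1 (304 ± 3.17) stood above NQO1 (255 ± 4.45) in all 3 libraries, whereas NQO1 stood above both in all 3 controls.

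The wider list held 84 genes in 6 roles, the 10 included, and all 84 were tested. Of them 6 were higher and 1 was lower, or 8.33%, close to the 9.9% of all genes tested. Their median log2 fold change was 0.02. Beside SOD2, SOD3 and HMOX1, the genes that passed were GPX3, TXNIP, AKR1C1 and CHAC1. DESeq2 called 9 higher and 8 lower of the 84, and 22.5% of all the genes it tested. With single libraries left out there were 2 to 8 higher and 1 to 3 lower. Without shControl replicate 1, 2 or 3 there were 3 higher, and without shZNF469 replicate 1 there were 2. Leaving out shZNF469 replicates 2 and 3 in turn gave 2 and 3 lower.

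The largest change of the list was a fall. CHAC1 encodes an enzyme that degrades glutathione and is a known target of the stress factor ATF4. It had 9.99, 9.47 and 9.04 CPM under shControl and 3.23, 2.52 and 3.10 CPM under shZNF469. The groups were far apart (log2 fold change -1.69, SE 0.13, adjusted p = 0.000675), and the call held in all 14 alternative settings. GPX3, the secreted glutathione peroxidase gene, rose from 8.45 ± 1.22 to 13.8 ± 0.259 CPM (1.63-fold, adjusted p = 0.0118), a call lost without shZNF469 replicate 1 (adjusted p = 0.0608). Of the 24 genes of glutathione synthesis and use, these 2 passed by edgeR (8.33%, against 9.9% of all genes tested). At an unadjusted p under 0.05 there were 2 higher and 3 lower, and by DESeq2 2 and 2. Over all genes these rules called 24.5% and 22.5%. GSTM2, a glutathione transferase gene, had a log2 fold change of 0.19 and did not pass (adjusted p = 0.0722).

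Of 16 thioredoxin and peroxiredoxin genes, 1 was higher and 0 lower by edgeR, with 1 higher and 3 lower at an unadjusted p under 0.05 and by DESeq2. Over all genes these rules called 9.9%, 24.5% and 22.5%. The gene that rose was TXNIP, which encodes an inhibitor of thioredoxin that also limits glucose uptake. TXNIP had 622, 615 and 603 CPM under shControl and 818, 848 and 813 CPM under shZNF469. The groups lay far apart for their spread (1.35-fold, log2 fold change 0.43, SE 0.04, adjusted p = 0.00122), and the call held in all 14 alternative settings. MSRA, a methionine sulfoxide reductase gene, and PRDX6, a peroxiredoxin gene, were lower in all 3 knockdown libraries without passing (log2 fold changes -0.40 and -0.19, adjusted p = 0.0551 and 0.0624).

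Of 19 genes for quinone, haem and carbonyl detoxification, 2 were higher and 0 lower by edgeR, with 5 higher and 2 lower at an unadjusted p under 0.05, and 4 and 2 by DESeq2. Among all genes tested, the shares these called were 9.9%, 24.5% and 22.5%. Besides HMOX1, AKR1C1 rose, an aldo-keto reductase gene known as an NRF2 target in human cells, from 28.05 ± 0.695 to 39.4 ± 4.81 CPM (1.40-fold, adjusted p = 0.0181). This gene shares much of its sequence with AKR1C2 and AKR1C3, so its counts are uncertain, and leaving out shZNF469 replicate 1 or any of the 3 controls ended the call (adjusted p up to 0.0814). OSGIN1, an oxidative stress gene, had a log2 fold change of 0.46 and did not pass (adjusted p = 0.0747). The ferritin genes FTL and FTH1, which store iron such as that freed from haem, did not pass (log2 fold changes 0.13 and 0.21), and their counts are uncertain because both have many near-identical pseudogene copies.

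Genes that supply NADPH, the electron donor of both the glutathione and the thioredoxin systems, did not pass. Of 11, 0 were higher and 0 lower by edgeR, with 0 higher and 1 lower at an unadjusted p under 0.05 and by DESeq2, against 9.9%, 24.5% and 22.5% of all genes tested. The lower gene was NADK, the cytosolic NAD kinase, at 48.4 ± 0.491 and 43.2 ± 0.704 CPM (log2 fold change -0.17, adjusted p = 0.0658). ME1, the cytosolic malic enzyme and a known NRF2 target, had a log2 fold change of -0.16 (adjusted p = 0.275) and IDH2, of mitochondria, one of 0.17 (adjusted p = 0.221).

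**Figure D4:**
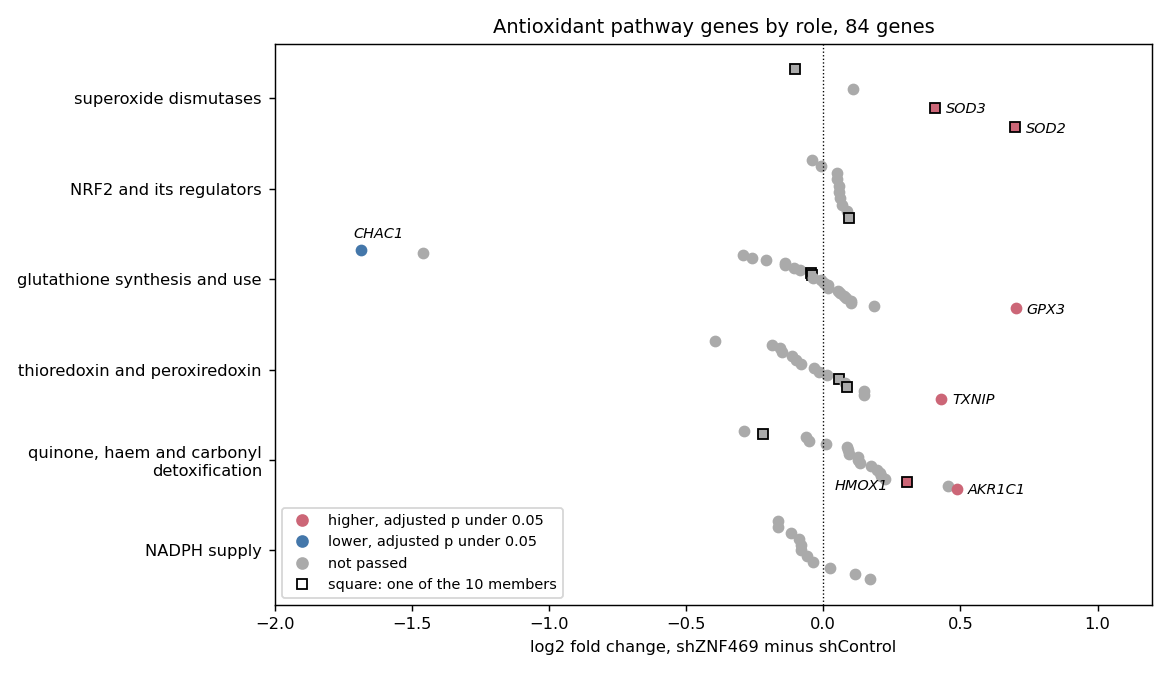
Log2 fold change of 84 antioxidant pathway genes in 6 roles; each point is 1 gene, squares are the 10 genes described first, and colours give the edgeR call. Of the 84, 6 passed as higher and 1 (CHAC1) as lower, and no gene of the NRF2 regulator or NADPH supply lists passed.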

How the data were processed

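Per the submitters' processing notes, HISAT2, StringTie and GRCh38.p14 were used, without versions. The annotation, strand setting and filters are not stated in the labels or notes used here. The deposited table gives read counts per gene and library, not normalized, and, beside them, TPM that the authors computed. The members and the gene lists were chosen with earlier results of these data known.

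Counts were analysed with edgeR 4.0.16 in R 4.3.3. Genes were kept by filterByExpr (minimum count 10), scaled by TMM and compared between groups of 3 libraries by the two-sided quasi-likelihood F-test, without covariates, with Benjamini-Hochberg adjustment over 16353 genes. The SE came from the estimate and its F statistic, and 95% intervals are for single genes, not adjusted. Ratios and shares were compared by exact permutation over libraries. Code was tested on simulated counts. Alternatives were DESeq2 1.42.0, other scalings, no filter, a replicate block, limma 3.58.1 on log2(TPM + 1) and log2(TPM + 0.1), each library left out, and, chosen after seeing the data, a transcript length fit. Besides the 10 members and ZNF469, the text names up to 3 genes of each role list with the lowest p and any that passed with 1.5-fold or more. WTAP, KEAP1, BACH1, FTL and FTH1 were named after their values were seen.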

Additional observations from a re-analysis of the deposited data

How the results depend on the processing

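ZNF469, SOD2, CHAC1 and TXNIP kept their direction and their call in all 14 alternative settings, with log2 fold changes of 0.54 to 0.76 for SOD2. With 1 library left out, the higher members numbered 1 to 3, the higher genes of the wider list 2 to 8 and the lower ones 1 to 3. Over all genes these fits gave 204 to 769 higher and 333 to 854 lower. Of the 10 members, 1 was lower (NQO1) with DESeq2, with the replicate block and with the transcript length fit. The wider list gave 8 lower with DESeq2, 2 with the replicate block and 6 with the length fit. All genes gave 1638 higher and 1642 lower with DESeq2, and 1022 higher and 1213 lower with the length fit. With limma they gave 233 and 526 on log2(TPM + 1), and 191 and 462 on log2(TPM + 0.1). The cause of these differences was not tested, except that fits without a library rest on fewer samples. Signs turned, with no call in any setting, for SOD1 (-0.243 to 0.037), GCLC (-0.079 to 0.001), GCLM (-0.130 to 0.004) and SRXN1 (-0.005 to 0.158) with single libraries left out. Same-numbered deviations correlated at -0.043, 0.060 and 0.124 between the groups, and those of different numbers at -0.116 to 0.064. These few weak correlations cannot settle whether the replicate numbers pair the libraries. The replicate block gave 592 higher and 736 lower genes and ended the call of SOD3 (adjusted p = 0.0565). The difference in the GCLM to GCLC log2 ratio was -0.05 to 0.04 and that of the SOD2 share 4.82 to 9.55 percentage points with single libraries left out.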
